A study of Homo sapiens with 9 samples.

Results

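Follistatin (FST), its relatives FSTL1 and FSTL3, the BMP antagonist gremlin (GREM1), the activin A subunit gene INHBA and the 3 TGF-beta ligand genes TGFB1, TGFB2 and TGFB3 were followed through RAS-induced senescence of fibroblasts. The genes were found by symbol in the deposited table, and all 8 were among its 13745 rows. They were chosen by their values in all 9 libraries, so their levels and differences are given as a description and not as a test. Of the 8, 7 reached a value of 40 in at least 1 library and entered the fit over 12481 genes. TGFB3 did not. TGFB2 entered it only through the control library, and INHBA only through the libraries with RAS.

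The cells were BJ cells, human fibroblasts immortalised with telomerase (hTERT), and polyA RNA was sequenced. The control (1 library) carried the non-targeting hairpin 500 and no RAS activation. The senescent group (2 libraries) carried non-targeting hairpin 500 or 507 and active RASG12V, an oncogenic form of RAS that drives these cells into a lasting arrest. In 4 libraries, replicates 1 to 4, the long non-coding transcript lncRNA-OIS1 was depleted under active RASG12V with hairpins 32-2, 32-3, 32-8 and 32-9. p53 and BRD7, a bromodomain protein, were each knocked down with RASG12V in 1 library. The labels give 14 days of 4-OHT for every group, the control included, whereas the series design calls the control cells untreated. Which of these holds was not settled here. The words "without RAS" below rest on the control's condition label, which names no RAS, and if the control was untreated, RAS and 4-OHT cannot be told apart in differences from it. They do not say whether libraries of a group came from separate cultures, so the spread between them may be technical.

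Activin A and the TGF-betas are secreted dimers that bind pairs of type I and type II serine/threonine kinase receptors, which phosphorylate SMAD2 and SMAD3. Follistatin and FSTL3 bind activin outside the cell and keep it from its receptors. Gremlin does the same to BMPs, the branch of the family that signals through SMAD1, SMAD5 and SMAD9. In fibroblasts TGF-beta drives matrix and contractile genes, and it can induce the CDK inhibitor gene CDKN2B. Activin A and TGF-beta also belong to the factors that senescent cells secrete.

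Each value is a normalised read count. After normalisation each of the 9 libraries holds 1 shared set of values that ends at 20, the floor. Sequencing depth is therefore unknown, and counting error could not be estimated. The most distinct libraries were the control and replicate 4 of lncRNA-OIS1 knockdown, where respectively 490 and 300 genes exceeded all other libraries by more than 2-fold, against at most 27 in any of the other 7. BRD7 stood at 94.6 in its knockdown library and 583 ± 65.1 (SD, n = 2) in the senescent group (limma adjusted p = 0.0461). Leaving out either senescent library, or 1 of lncRNA-OIS1 replicates 1, 2 and 3, left BRD7 without a call. The level of lncRNA-OIS1 itself was not analysed here. All 8 fibroblast markers were in the table, with a summed value of 329710.5 in the control and 111710.1 to 171244.3 in the RAS libraries. Most of the control sum was COL1A2 (129460.3) and COL1A1 (110360.7), and COL1A1 is also a TGF-beta response gene below. The markers did not move together. VIM rose from 39745.4 without RAS to 48419.6 or more with it, and NT5E from 1465.6 to 17757 or more. The rest were lower in every RAS library. Of markers of other cells, 3 of 7 epithelial, 2 of 6 leukocyte and 1 of 5 endothelial genes were in the table. Their summed values were 3686.7 in the control and 801.4 to 2105.3 with RAS for epithelial genes, 196.5 and 45.1 to 163.9 for leukocyte genes, and 22.2 and 37.4 to 266.9 for the endothelial gene TIE1. The leukocyte gene PTPRC read 156.6 without RAS and was at the floor in all 8 RAS libraries. CD14, the other leukocyte gene, went the opposite way in senescence, from 39.9 without RAS to 143.9 and 115.2. With the knockdowns CD14 stood at 25.1 to 117.7. The part of these shifts in the differences below was not tested.

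**Figure D1:**
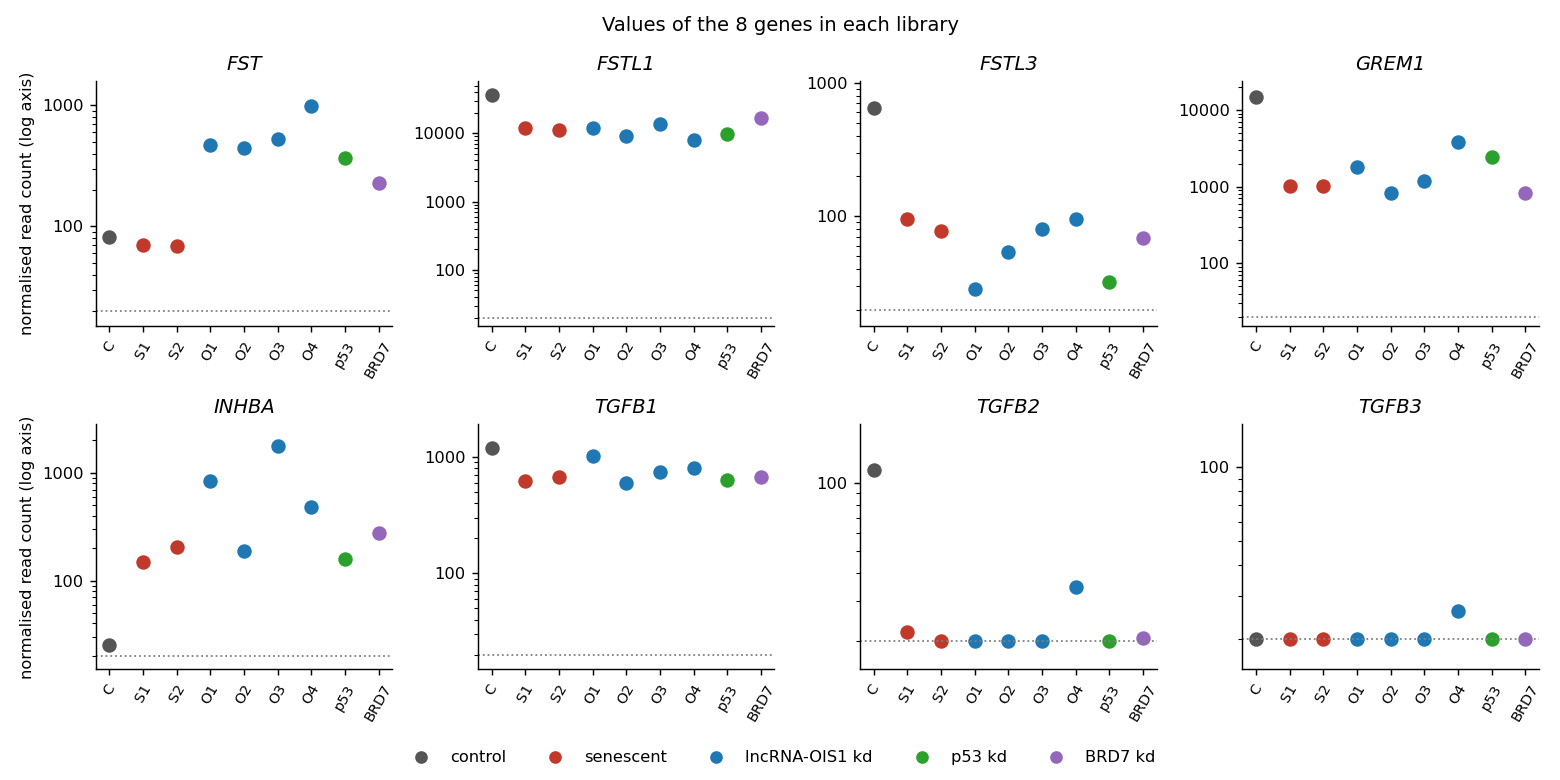
Normalised read count (log axis) of each gene in the 9 libraries: control (C), senescent (S1, S2), lncRNA-OIS1 knockdown (O1 to O4), p53 and BRD7 knockdown; each point is 1 library and the dotted line is the floor of 20. FST is higher in all 6 knockdown libraries than in the control and senescent libraries, and FSTL1, FSTL3, GREM1, TGFB1 and TGFB2 are highest in the control.

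FST, the secreted activin antagonist, separated the knockdown libraries from the senescent ones. Its value was 81.8 without RAS and 69.8 and 68.4 in senescence. With lncRNA-OIS1 hairpins it stood at 469.7, 446, 524 and 994.1 in replicates 1 to 4. It stood at 368.7 with p53 knockdown and at 229 with BRD7 knockdown. The 6 knockdown libraries lay above the other 3 without overlap, and the share of all genes with that pattern was not counted. Within the lncRNA-OIS1 group replicate 4 was far above the rest. The lncRNA-OIS1 mean was 608 ± 259 (SD, n = 4) and the senescent mean 69.1 ± 0.99 (n = 2), a ratio of 8.81 and a log2 difference of 3.06 (SE 0.35). Without replicate 4 the mean was 480 ± 39.99 (n = 3) and the log2 difference 2.79. The log2 difference from the senescent group was 2.42 (SE 0.50) with p53 knockdown and 1.73 (SE 0.50) with BRD7 knockdown. These 3 comparisons share the senescent libraries. In bulk RNA, fewer cells of a kind and less RNA per cell cannot be told apart. Senescent libraries differed from the control by a log2 of −0.24 (SE 0.50), less than that error.

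The lowest knockdown library held 3.28 times the FST value of the higher senescent library. Ranked by this ratio, a measure chosen after the values were seen, FST was number 2 of 12481 genes. All 6 knockdown libraries were above both senescent libraries for 1 of the 7 genes, FST, and for 14.7% of all genes. They were at least 2-fold above both for 1 of the 7, again FST, and for 0.312% of all genes. All 4 lncRNA-OIS1 libraries were above both senescent libraries for 1 of 7, again FST, against 17.1% of all genes, and 0 of 7 had all 4 below, against 21.5%. Within a library, FST lay at the 23.6th and 23.8th percentile of genes in the senescent libraries and at the 56.4th to 75.6th with lncRNA-OIS1 hairpins, the 51.9th with p53 knockdown and the 41.8th with BRD7 knockdown.

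INHBA encodes the beta A subunit of which activin A is a dimer. Its value was 25.3 without RAS, close to the floor, and 149.1 and 204.7 in senescence. With lncRNA-OIS1 hairpins it stood at 838.9, 189.7, 1764.9 and 483.3 in replicates 1 to 4. It stood at 158.2 with p53 knockdown and 276.3 with BRD7 knockdown. All 8 RAS libraries were above the control, as for 25.3% of all genes. Replicate 2 and the p53 knockdown lay within the senescent range, while replicates 1, 3 and 4 and the BRD7 knockdown lay above it. The senescent mean was 177 ± 39.3 (n = 2), 6.99 times the control value (log2 2.79, SE 1.23). The lncRNA-OIS1 mean was 819 ± 684 (n = 4; log2 difference 1.80, SE 0.87), and the highest of its hairpins held 9.30 times the lowest. That ratio between hairpins was larger than the ratio of the senescent mean to the control. The log2 differences from the senescent group were −0.14 for p53 and 0.66 for BRD7 knockdown (SE 1.23 each), within the error.

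The balance of antagonist to ligand transcript was followed as the ratio of FST to INHBA within each library, which says nothing of either protein. Without RAS the ratio was 3.23, and in senescence 0.468 and 0.334. The value without RAS comes from 1 library in which INHBA, at 25.3, was close to the floor. It was 0.560, 2.35, 0.297 and 2.06 in lncRNA-OIS1 replicates 1 to 4, 2.33 with p53 knockdown and 0.83 with BRD7 knockdown. Replicate 3 was below both senescent libraries and the other 5 knockdown libraries were above both, so the ratio did not separate the groups as FST alone did.

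**Figure D2:**
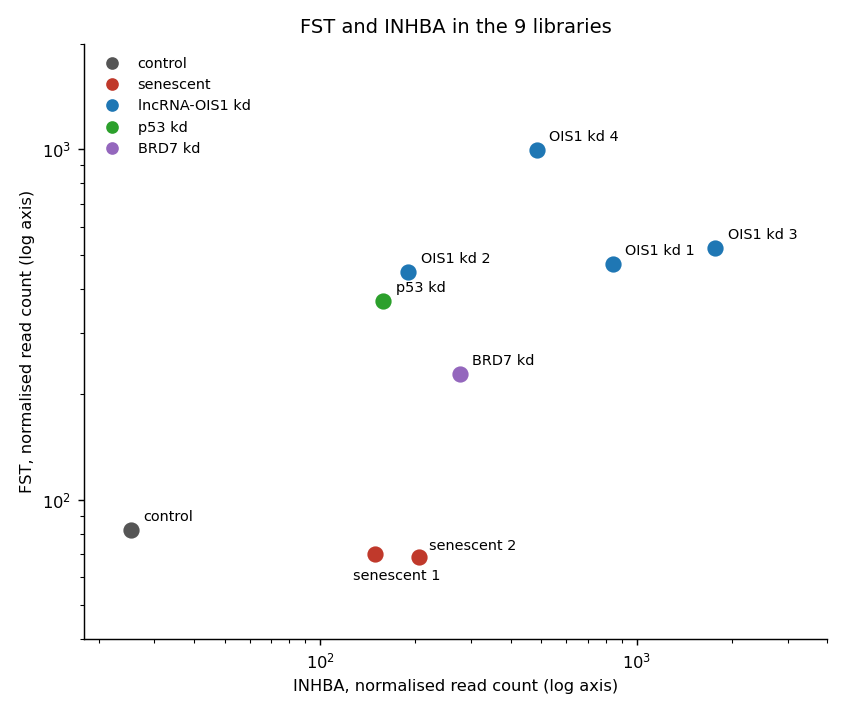
FST against INHBA, both as normalised read counts on log axes, with 1 point for each of the 9 libraries. FST is 229 or more in every knockdown library, while INHBA spreads from 158.2 to 1764.9 among the same 6 libraries.

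The regions at the starts of FST and INHBA are shown because both genes were read against each other, together with that of GREM1, the most reduced gene of the 8 in the senescent libraries. They are RefSeq promoter windows of build GRCh38.p14 with 250 bases before and 50 after the gene's start, written 5′ to 3′ in the direction of transcription. They come from another build than the deposited table. Capitals mark matches on either strand to 4 of the 6 motifs searched. The AP-1 site was read as TGANTCA. The cyclic AMP response element was read as TGACGTCA, and these letters contain no match to the AP-1 motif. The TATA box was read as TATAAA. The core of the SMAD-binding CAGA box was read as CAGACA. The FST window is chr5:53480379-53480678 (+ strand), the INHBA window chr7:41703041-41703340 (− strand) and the GREM1 window chr15:32717754-32718053 (+ strand).
FST: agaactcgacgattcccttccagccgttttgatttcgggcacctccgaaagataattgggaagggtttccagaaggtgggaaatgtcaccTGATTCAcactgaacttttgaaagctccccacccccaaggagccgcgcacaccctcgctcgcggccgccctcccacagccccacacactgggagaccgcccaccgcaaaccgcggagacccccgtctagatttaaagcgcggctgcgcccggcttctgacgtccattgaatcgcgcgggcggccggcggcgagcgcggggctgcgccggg
INHBA: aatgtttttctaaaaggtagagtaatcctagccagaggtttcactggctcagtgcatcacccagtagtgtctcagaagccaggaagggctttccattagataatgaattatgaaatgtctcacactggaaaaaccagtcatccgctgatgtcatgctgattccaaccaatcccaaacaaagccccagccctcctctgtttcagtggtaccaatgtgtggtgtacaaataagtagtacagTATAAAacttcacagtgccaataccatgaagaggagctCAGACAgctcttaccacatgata
GREM1: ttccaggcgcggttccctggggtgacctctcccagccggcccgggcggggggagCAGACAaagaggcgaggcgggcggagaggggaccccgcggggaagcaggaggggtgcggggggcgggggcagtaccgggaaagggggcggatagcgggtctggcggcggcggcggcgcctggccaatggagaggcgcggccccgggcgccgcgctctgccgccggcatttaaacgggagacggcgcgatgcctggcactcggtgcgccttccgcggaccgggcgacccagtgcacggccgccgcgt
The table held 10 windows for the 8 genes. The FST window was the only one of these 10 with TGANTCA, which 7.71% of 35116 windows of 300 bases held, and its match starts 160 bases before the gene's start. The INHBA window held TATAAA 11 bases before the start and CAGACA within the transcribed part. TATAAA occurred in 4 of the 10 windows and in 11.5% of all windows. CAGACA occurred in 3 of the 10 windows, those of INHBA, TGFB2 and the GREM1 window shown, and in 16.9% of all windows. TGACGTCA occurred in 0 of the 10 and in 1.85% of all. The unmarked motifs were the CCAAT box, read as CCAAT, in windows of 3 of the 8 genes and 34.6% of all windows, and the GC box, read as GGGCGG, in those of 5 genes and 45% of all. The INHBA window had 43.3% G and C and the FST and GREM1 windows 63.7% and 77%, against a median of 58.7%. A match is a run of letters and not evidence of binding.

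GREM1, which holds BMPs away from their receptors, showed the largest difference of the 8 genes between the senescent libraries and the control. Its value was 14952.6 without RAS and 1013 and 1004.3 in senescence. LncRNA-OIS1 replicates 1 to 4 had 1827.4, 820.9, 1167.8 and 3796.9. The p53 knockdown had 2405.7 and the BRD7 knockdown 830.3. All 8 RAS libraries lay far below the control, and the knockdown libraries fell on both sides of the senescent pair. The senescent mean of 1009 ± 6.15 (n = 2) was 6.75% of the control (log2 −3.89, SE 0.86). The highest RAS library, replicate 4, reached 25.4% of it. The lncRNA-OIS1 mean was 1903 ± 1330 (n = 4; log2 difference 0.67, SE 0.60) and 1272 ± 511 (n = 3) without replicate 4, so its distance from the senescent mean was within the spread. The log2 difference was 1.25 (SE 0.86) for p53 and −0.28 (SE 0.86) for BRD7 knockdown.

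FSTL1, a secreted glycoprotein gene that shares a follistatin-type module with FST, was abundant in every library and lower with RAS. Its value was 36357.1 without RAS, and 11855.2 and 11040.1 in senescence. LncRNA-OIS1 replicates 1 to 4 had 11810.8, 9169.4, 13466.6 and 8014.6, p53 knockdown 9743.6 and BRD7 knockdown 16459.2. No RAS library reached the control, and the BRD7 knockdown was the nearest, at 45.3% of it. The senescent mean, 11448 ± 576 (n = 2), was 31.5% of the control (log2 −1.67, SE 0.32). The lncRNA-OIS1 mean of 10615 ± 2477 (n = 4) lay within its own spread of the senescent mean (log2 difference −0.14, SE 0.23). The corresponding differences were −0.23 for p53 and 0.52 for BRD7 knockdown (SE 0.32 each).

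FSTL3, a follistatin relative that also binds activin, had 643.2 without RAS, and 94.6 and 77.6 in senescence. LncRNA-OIS1 replicates 1 to 4 had 28.6, 53.8, 80 and 94.9, p53 knockdown 32.3 and BRD7 knockdown 69.2. All 8 RAS libraries lay below the control, at 14.8% of it or less. The senescent mean was 86.1 ± 12.02 (n = 2; log2 −2.91, SE 0.71 against control). Replicate 3 of the lncRNA-OIS1 group lay within the senescent range, replicate 4 just above it and replicates 1 and 2 below it (mean 64.3 ± 29.3, n = 4; log2 difference −0.55, SE 0.50). The p53 knockdown differed from the senescent mean by a log2 of −1.41 (SE 0.71) and the BRD7 knockdown by −0.31 (SE 0.71). FST and FSTL3, both activin antagonists, were thus placed differently: the 6 knockdown libraries were above the senescent pair for FST, and for FSTL3 they were below both (4 libraries), between them (replicate 3) or just above both (replicate 4).

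TGFB1, which encodes the first of the TGF-beta ligands, varied least among the tested ligands. It had 1190.6 without RAS, and 614.9 and 669.9 in senescence. LncRNA-OIS1 replicates 1 to 4 had 1014, 600.6, 742.8 and 808.8, p53 knockdown 627.9 and BRD7 knockdown 673.8. All RAS libraries were below the control, and replicates 1, 3 and 4 were above both senescent libraries. The senescent mean, 642 ± 38.9 (n = 2), was 54.0% of the control (log2 −0.89, SE 0.30). The lncRNA-OIS1 mean was 792 ± 172 (n = 4; log2 difference 0.28, SE 0.21), and the p53 and BRD7 knockdowns differed from the senescent mean by a log2 of −0.03 and 0.07 (SE 0.30 each).

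TGFB2 was close to the floor wherever RAS was active. It had 113.9 without RAS, 22 and 20 in senescence, and 20 in lncRNA-OIS1 replicates 1, 2 and 3 and in the p53 knockdown. Replicate 4 had 34.8 and the BRD7 knockdown 20.7. The senescent mean was 5.42-fold below the control, and since 1 of the 2 libraries was at the floor this may understate the difference (log2 −2.44, SE 0.39). TGFB3 was at the floor in 8 libraries and at 25.9 in replicate 4, so it was not followed further.

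Across the 7 genes, the median log2 difference between senescent libraries and control was −1.67, against 0.03 for all genes, with 6 below 0 and INHBA above. The 5 genes FSTL1, FSTL3, GREM1, TGFB1 and TGFB2 had all 8 RAS libraries below the control, as had 23.1% of all genes. For 4 of these the gap was at least 2-fold in each library, as for 3.93% of all genes. By limma with Benjamini-Hochberg adjustment over all genes, FSTL1, FSTL3, GREM1 and TGFB2 were among the 15% of genes called (7.95% higher and 7.1% lower), and nothing is read from that count because the genes were chosen with these values known. Without senescent replicate 1 or 2, 0 of the 7 were called, where 1.1% and 0.994% of all genes were. FSTL3 also lost its call without lncRNA-OIS1 replicate 2 or 3, GREM1 without replicate 1 or 3 and FSTL1 without replicate 1 or 2. TGFB2 kept its call without any 1 of the 4 lncRNA-OIS1 replicates. However, TGFB2 entered the fit only through the control, where it was high, and its spread among RAS libraries is limited by the floor. Its calls and its place among the 4 genes at least 2-fold lower are therefore a description. The share of all genes called was 10.4%, 9.1% and 11.7% without lncRNA-OIS1 replicates 1, 2 and 3. FSTL3 and GREM1 lost their calls with no filter on low values, where 14.9% of genes were called. The median differences from the senescent group were 0.28 for lncRNA-OIS1, −0.07 for p53 and 0.07 for BRD7 knockdown, against −0.02, 0 and −0.02 for all genes. None of the 7 was called by limma in these 3 comparisons, in which 0%, 3.84% (2.27% higher and 1.57% lower) and 0.00801% of all genes were. Of all genes, 2805, 3286 and 1735 had an unadjusted p under 0.05. Without lncRNA-OIS1 replicate 4, FST was called with lncRNA-OIS1 and with p53 knockdown, where 1.31% and 17.2% of genes were. FST was also called with p53 knockdown among genes with a mean of at least 80, where 6.47% were. Omitting replicate 4 gave 29.7% of genes between senescent libraries and control and 0.0641% with BRD7 knockdown. When each fit held only the groups compared, INHBA and TGFB1 joined the 4 genes called between senescent libraries and control, where 40% of genes were. FST, FSTL3 and GREM1 were then called with p53 knockdown, where 27.5% were, and none of the 7 with BRD7 knockdown, where 0.649% were.

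**Figure D3:**
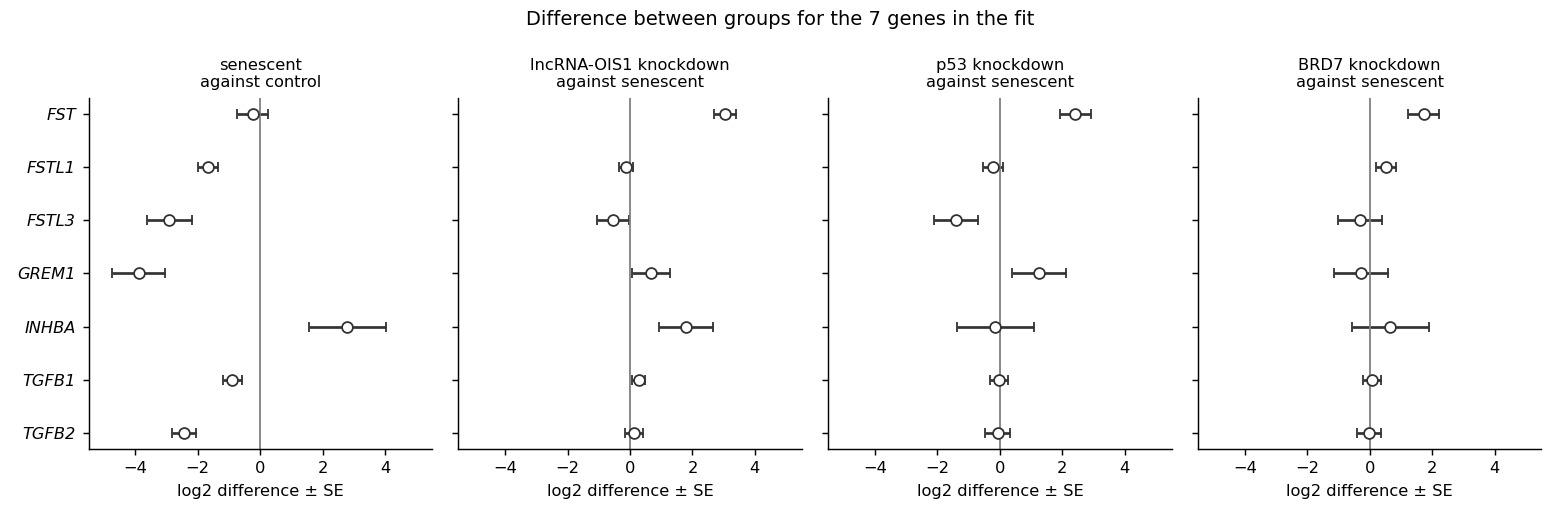
Log2 differences between groups with their standard errors for the 7 genes in the fit, in 4 comparisons; the vertical line marks no difference and the last 3 panels share the senescent libraries. FST lies furthest to the right of the 7 in each knockdown panel, and GREM1 furthest to the left in the senescent panel.

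Over the 9 libraries, log2 values of GREM1 and TGFB2 correlated at r = 0.911 and those of FSTL3 and TGFB2 at 0.900, while FST and INHBA correlated at 0.654 and FST and GREM1 at −0.057. These r values are a description: the 9 libraries include 1 control that stands apart, and they share 1 normalisation. Likeness was the r of log2 values with each other gene whose mean was at least 200 (8491 or 8492 genes). Those most like FST over the 9 libraries were MYO9B (r = 0.976) and HSP90B1 (0.975). INHBA was most like TFAP2C (0.966) and CAMSAP2 (0.962), GREM1 like BRD3 (0.986) and C14orf132 (0.978), and FSTL1 like UAP1L1 (0.979) and CALD1 (0.973). FSTL3 was most like RHOQ (0.978) and RDH10 (0.962), TGFB1 like ZBTB1 (0.959) and WDR13 (0.952), and TGFB2 like FAM65B (0.995) and COL16A1 (0.991).

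The receptors and transducers of the same signals were examined as a separate list without the 8 genes. That list too was chosen with earlier results of these data known, so its shares are a description. Of 67 genes of the activin, TGF-beta and BMP pathways in the fit, 3 rose and 17 fell in the senescent libraries against the control, 29.9% against 15% of all genes, with a median log2 difference of −0.57 against 0.03. The control had no replicate. The spread comes only from the replicated groups, the senescent and lncRNA-OIS1 libraries, and so includes differences between lncRNA-OIS1 hairpins. Without senescent replicate 1 or 2, 0 rose and 4 fell, 5.97% against 1.1% and 0.994% of all genes. Without lncRNA-OIS1 replicate 2, 2 rose and 10 fell, 17.9% against 9.1%. Without lncRNA-OIS1 replicate 4, 7 rose and 25 fell, 47.8% against 29.7%. With only the groups compared in the fit, 11 rose and 34 fell, 67.2% against 40%. In the lists by role below, called shares stand beside 15% of all genes, of which 7.95% were higher and 7.1% lower.

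Among 9 receptors 1 rose and 1 fell, 22.2% against 15% of all genes, which on 9 genes is 1 gene in each direction and close to the background. TGFBR2, the type II receptor of TGF-beta, rose from 2681.7 to 6587 and 6496.8 (log2 1.29, SE 0.18, adjusted p = 0.0135). In the knockdown libraries it held 5685.4 to 8402.9. ACVR2A, a type II activin receptor, fell from 163.6 to 90 in both senescent libraries (log2 −0.86, adjusted p = 0.0378). ACVR1B, the type I activin receptor, had 417.2 without RAS and 349 ± 10.04 (n = 2) in senescence (adjusted p = 0.447). TGFBR1 had 1786.9 against 974 ± 22.9 (adjusted p = 0.431), and the co-receptor TGFBR3 487.1 against 191 ± 32.3 (adjusted p = 0.215). ACVR2B was at 34 or less in all libraries and was not tested.

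Of 8 SMAD genes 3 fell and 0 rose, 37.5% against 15% of all genes. SMAD4, the shared partner of both branches, fell from 1177.6 to 537 ± 29.4 (log2 −1.13, adjusted p = 0.0179) and SMAD9 from 241.6 to 75.2 ± 3.18 (log2 −1.68, adjusted p = 0.0189). SMAD6, an inhibitory SMAD, read 96 without RAS and lay on the floor in all 8 RAS libraries, at least 4.8-fold lower (adjusted p = 0.00198). The p of SMAD6 rests on moderated variance, since its replicated groups had no spread. SMAD6 also entered the fit only through the control, where it was high, so its p and its place in the count are a description. Of the 2 BMP ligand genes tested, BMP4 fell from 380 to 93.4 ± 17.4 (log2 −2.04, adjusted p = 0.0403).

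Of 11 genes for latency and activation of TGF-beta, 1 rose and 4 fell, 45.5% against 15% of all genes. LTBP1, which tethers latent TGF-beta to the matrix, rose from 709.3 to 3432 ± 277 (log2 2.27, adjusted p = 0.00818), while its relative LTBP3 fell from 1693.8 to 452 ± 42.0 (log2 −1.91, adjusted p = 0.00818). THBS1, an activator of latent TGF-beta, fell from 211606.6 to 29028 ± 2501 (log2 −2.87, adjusted p = 0.0323), and FBN1, the microfibril gene that holds latent complexes, from 26990.8 to 6114 ± 293 (log2 −2.14, adjusted p = 0.0114). Of 13 antagonists and feedback genes 2 fell and 0 rose, 15.4% called and so at the background of 15%. They were the TGF-beta-binding proteoglycan DCN (log2 −7.30, adjusted p = 0.00182) and the repressor TGIF1 (log2 −1.04, adjusted p = 0.0356). Of 4 follistatin-module genes, SPOCK1 fell (1519.4 to 163 ± 35.4, log2 −3.24, adjusted p = 0.00523).

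Among 11 TGF-beta response genes 5 fell and 1 rose, 54.5% against 15% of all genes. CNN1, a contractile gene, read 546.1 without RAS and 20, the floor, with it in both senescent samples, so it was at least 27.3-fold lower (adjusted p = 0.000221, with no spread in the replicated groups). COL1A1, the type I collagen gene, fell from 110360.7 to 9132 ± 1105 (log2 −3.60, adjusted p = 0.0144), and the contractile gene TAGLN from 10457 to 1647 ± 18.7 (log2 −2.67, adjusted p = 0.0435). CDKN2B rose from 39 to 277 ± 38.1 (log2 2.82, adjusted p = 0.0396). CNN1 entered the fit only through the control and CDKN2B only through the RAS libraries, where each was high. Their p values and places in the count are therefore a description. None of the 7 BMP response genes was called, with a median of −0.57, and 0 of 2 other activin and GDF ligands were.

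With lncRNA-OIS1 knockdown 0 of the 67 pathway genes were called by limma, as 0 of all 12481 genes were, although 2805 of all genes had an unadjusted p under 0.05. The 67 had a median log2 difference of 0.12 against −0.02 for all genes, with 41 above 0 and 25 below. By role, medians ran from −0.68 for the 2 other activin and GDF ligands to 0.94 for the 2 BMP ligands, and were 0.13 for receptors, 0.06 for SMADs, 0.12 for latency genes and 0 for TGF-beta response genes. With p53 knockdown 1 of 67 was called, the smooth muscle actin gene ACTA2, which fell from 277 ± 4.74 (n = 2) to 86.4 (log2 −1.68, SE 0.20, adjusted p = 0.0467), or 1.49% against 3.84% of all genes. Leaving out either senescent library, or 1 of lncRNA-OIS1 replicates 1, 2 and 3, left 0 genes called in that comparison, and leaving out replicate 4 gave 12 of the 67 (17.9%), near the 17.2% of all genes. With only the groups compared in the fit 24 of the 67 were called, 35.8% against 27.5% of all genes. With BRD7 knockdown 0 of 67 were called, against 0.00801% of all genes, with 1735 genes at an unadjusted p under 0.05 and a median for the list of 0.15.

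**Figure D4:**
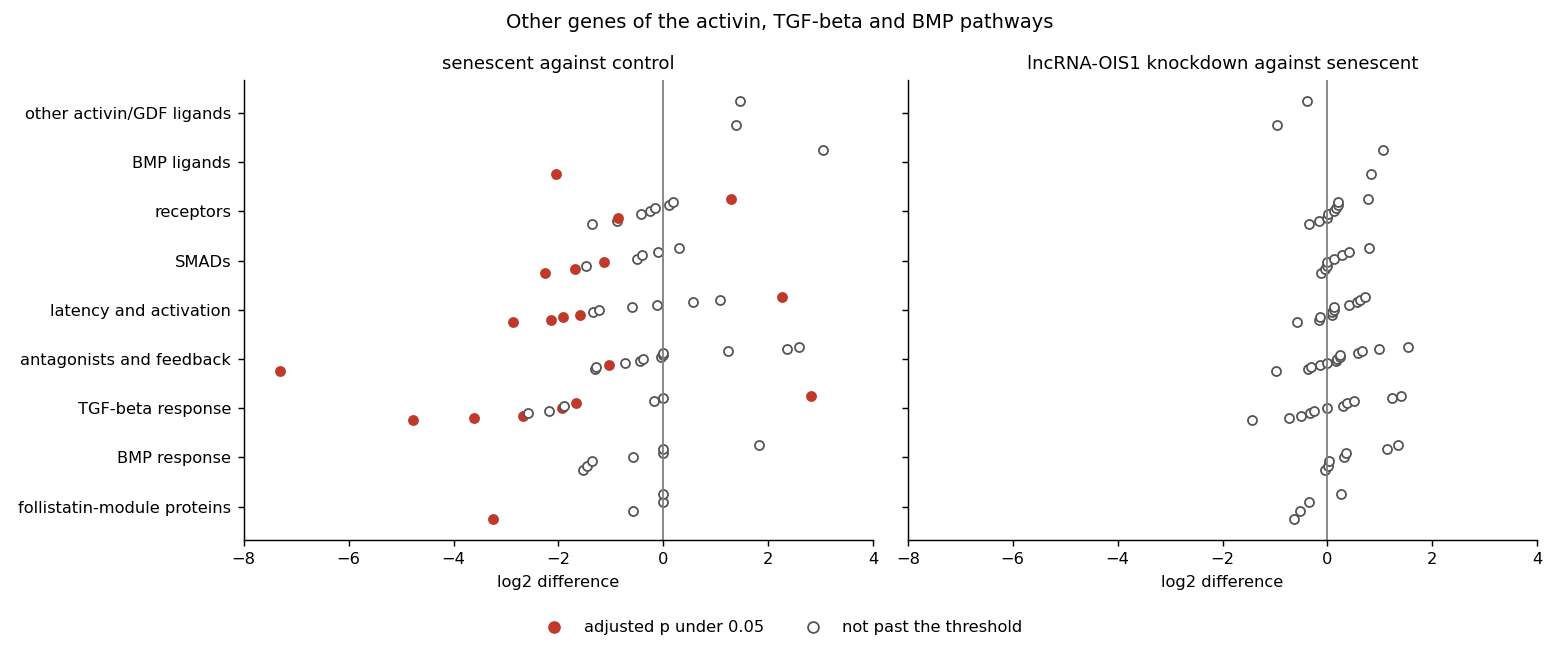
Log2 differences of the other pathway genes by role, senescent against control (left) and lncRNA-OIS1 knockdown against senescent (right); each point is 1 gene and filled points passed an adjusted p of 0.05. In the left panel 17 filled points lie below 0 and 3 above, and in the right panel there are none.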

How the data were processed

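The deposited table holds 1 signal per gene and library: read counts that the authors had normalised. The submitters' processing notes name TopHat2, HTSeq and hg19. For their roles and versions, and for the annotation and strand setting, the sources used here give nothing, so overlapping genes could exchange reads. That the authors used quantile normalisation with a floor is read from the table's name and the deposited values: sorted, the 9 columns are identical, and 10% of genes sit at 20 in each. This removes differences in total RNA between libraries and ties each value to a rank.

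limma 3.58.1 in R 4.3.3 was fitted to log2 of the deposited signal values, with no pseudocount, for 12481 genes with a highest value of at least 40. All 9 libraries in 5 groups entered 1 fit with 4 residual degrees of freedom, variances were moderated with a trend, and each single-library group was taken to have the spread of the replicated groups. Tests were two-sided, with Benjamini-Hochberg adjustment over all genes and a threshold of 0.05. Means and SD are of linear values. The fit was also run on simulated independent normal values, which had no floor, no shared set of values and no outlying library. That run therefore does not give the error rates of the fit on the deposited values. The 8 genes, the pathway lists (98 symbols, 73 in the table) and the cell type markers were chosen with earlier results of these data known. Up to 3 called genes per list, direction and comparison were named, largest difference first, with ACVR1B, ACVR2A, ACVR2B, TGFBR1, TGFBR2 and TGFBR3 whatever their values, and the 2 genes most like each member. Some results that this rule covers are not reported here. Promoter windows were matched by symbol, 8 of 8. Alternatives were log2(value + 20), median-of-ratios scaling, no filter, a mean of at least 80, only the groups compared, and each replicate left out. A further alternative was a replicate block, fitted only to replicates 1 and 2 of the senescent and lncRNA-OIS1 groups.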

Additional observations from a re-analysis of the deposited data

Results flagged for a closer look

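Of 15 genes examined (the 8 genes and 7 fixed pathway genes), 4 had a library in the lncRNA-OIS1 group of 4 far from the other 3, and in all 4 it was replicate 4. FST stood at 994.1 there against 446 to 524 in the other 3, TGFB2 at 34.8 against 20, TGFB3 at 25.9 against 20, and ACVR1B at 379.1 against 282.9 to 298.2. Chance flags about 1 in 20 groups, but nothing is read from the number here against that rate, since FST, TGFB2 and TGFB3 were chosen by values that include these. For TGFB2 and TGFB3 the other 3 libraries are at the floor, so any value above it is flagged.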

How the results depend on the processing

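Alternatives gave 311 further values of the 28 log2 differences of the tested genes. Direction was not reversed in 305, with the same side of the threshold in 281, a call lost in 16 and gained in 8. These 305 include TGFB2 with p53 knockdown without senescent replicate 1, a difference of 0 at the floor, which has no direction. The 6 reversals were all of values near 0: INHBA and TGFB1 with p53 knockdown without senescent replicate 2 (0.085 and 0.03, and −0.372 and −0.093 without replicate 1), TGFB2 with BRD7 knockdown under median-of-ratios scaling (0.001) and without senescent replicate 1 (0.05, and −0.088 without replicate 2), and TGFB2 with lncRNA-OIS1 hairpins without replicate 4 (−0.069, and up to 0.2 without senescent replicate 1) and with the replicate block (−0.069). Of 12481 genes, 1878 were called between senescent and control libraries, 0 with lncRNA-OIS1, 479 with p53 and 1 with BRD7 knockdown. A fit of only the groups compared called 4998, 0, 3428 and 81. In these fits, except that of lncRNA-OIS1, the spread comes from the senescent libraries alone. With no filter 57 were called with lncRNA-OIS1 and 30 with BRD7 knockdown, and with log2(value + 20) 0 with BRD7 knockdown (the cause was not tested). Leaving out 1 library gave 124 to 3704, 0 to 164, 0 to 2146 and 0 to 8. The highest of each range was without lncRNA-OIS1 replicate 4. Control, p53 and BRD7 libraries could not be left out of their own comparisons. TGFB2 is absent under a mean of at least 80. Replicate numbers 1 and 2 occur in both the senescent and lncRNA-OIS1 groups, and deviations of same-numbered libraries correlated at −0.071 and −0.099. The deviations of 2 senescent libraries from their mean mirror each other. This check therefore cannot tell whether same-numbered libraries share a batch or culture. The replicate block was fitted only to replicates 1 and 2 of the senescent and lncRNA-OIS1 groups. It called 0 genes, as the fit of all libraries without a block did. These fits differ in their libraries as well as in the block, so the part of the block cannot be told apart. The reversal of TGFB2 with the block had the same value, −0.069, without lncRNA-OIS1 replicate 4, which the block fit also lacked. Depth is unknown, and values near the floor of 20 limit TGFB2, TGFB3 and ACVR2B, and INHBA in the control.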

Other observations

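Some pathway genes outside the naming rule were chosen after their values were seen. JUNB, an AP-1 gene that TGF-beta can induce, read 438.6 without RAS, 364.4 and 415.2 in the senescent libraries, 1329.6, 875, 822.6 and 735.2 with lncRNA-OIS1 hairpins, 767.3 with p53 and 674.3 with BRD7 knockdown. All 6 knockdown libraries lay above the other 3, as for FST, and the share of all genes with that pattern was not counted. By limma JUNB was called in none of the 4 comparisons (adjusted p = 0.0856 for lncRNA-OIS1 knockdown). TGIF1 read 688.6 without RAS, 352.9 and 316.4 in senescence, and 534.2 to 759.8 in the 6 knockdown libraries (adjusted p = 0.0788 for lncRNA-OIS1 knockdown). For JUNB and TGIF1 all 6 knockdown libraries were above both senescent libraries, as for 14.7% of all genes.

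BMP2, a BMP ligand gene, read 20, the floor, without RAS and with p53 knockdown, 108 and 253.4 in senescence, and 641, 163.1, 615.8 and 113.3 with lncRNA-OIS1 hairpins. Replicates 1 and 3, the highest in BMP2, were also the highest in INHBA. PMEPA1, a TGF-beta-induced feedback gene, and NOG, the BMP antagonist noggin, had 122.8 and 100.2 in lncRNA-OIS1 replicate 4. PMEPA1 was at the floor in the other 8 libraries, and NOG at 31.6 or less.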
